A study of Mus musculus with 6 samples.

Results

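The genes described here are 40 mouse genes of homologous recombination, the Fanconi anaemia pathway and the DNA damage checkpoint, taken as a fixed list of symbols and set against 20018 genes that had a symbol and a probe on the arrays. A probe was assigned to a gene by the RefSeq accession the scanner files give for it, and every such probe was kept. This gave 51 probes for 39 of the genes, no probe being shared between genes, and no probe matched Rad51c. The liver samples came from male C57BL/6J mice 3 days after surgery. PVBL livers had the portal branch to the left side tied off, and the right lobe was collected as regenerating liver. Sham livers came from mice that had a sham operation. Each group held 3 samples, each labelled with Cy3 and read on its own single-colour Agilent array. The labels do not say that the samples of a group came from separate animals, so the p-values rest on sample-to-sample spread that may be technical, and the number of arrays limits every value.

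Homologous recombination repairs a DNA break by copying from the sister chromatid. Broken ends are trimmed to single strands, BRCA2 with PALB2 and a family of accessory proteins prepare these for pairing with the sister, and the joined strands are later taken apart by helicases and nucleases. The Fanconi pathway deals with strands cross-linked to each other: a core complex attaches ubiquitin to the FANCD2 and FANCI pair, which brings in nucleases and the recombination proteins. The kinases ATM and ATR signal the damage through CHEK2 and CHEK1. Most hepatocytes of an adult liver are out of the cell cycle, and loss of portal flow or tissue in one part of the organ leads those elsewhere to replicate their DNA.

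Values are scaled signals, given as a percentage of the 75th percentile of all probes on the same array, and they compare 1 probe between arrays, not 1 gene with another. Of the 51 probes 47 passed the filter, which asks that all 3 arrays of either group lie well above background, and these were tested with limma over all 27919 such probes of the arrays. A probe was called at a Benjamini-Hochberg adjusted p under 0.05. A gene rose or fell where at least 1 of its probes was called and none was called the other way, and it was flat where no probe was called and the 95% interval of every log2 difference stayed within 1 of 0, that is within 2-fold. The PVBL arrays lay in row 2 of the slide and the sham arrays in row 1, and an effect of the row cannot be told apart from that of surgery. Over all tested probes, arrays of the same group correlated at 0.983 to 0.996 and arrays of different groups at 0.956 to 0.968. Signals at the 75th percentile lay between 331 and 407 units on the PVBL arrays and between 203 and 315 units on the sham arrays.

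Transcripts of 24 of the 40 genes rose in PVBL livers, 2 fell, 10 were flat and 1 was undecided, while 2 had no tested probe and 1 no probe. In bulk tissue more cells that carry a transcript and more of it per cell cannot be told apart. Over all 13587 genes tested by the same rule 15.6% rose and 18.3% fell, and 53.5% were flat. Counted by probes, 27 of the 47 tested were called higher and 3 lower, against 11.3% and 19.2% of all tested probes, or 30.5% in either direction. Of the 24 rising genes 20 were at least 2-fold higher, by the bound explained further on where no sham array was above background, as were 7.37% of all tested genes. In 33 of the 47 all PVBL values lay above all sham values, which was true of 17.6% of all tested probes. A probe that is above background in PVBL livers alone enters the test only because it is high there, so the count was also made on probes well above background on all 6 arrays. On those, 12 of 26 genes rose, 2 fell and 11 were flat, against 15.6% of all genes on such probes that rose. The median log2 difference over the 39 genes with a probe, without any filter and with the brightest probe of each, was 1.63. The median was 0.96 with genes that were not above background in sham livers set to the approximate bound explained further on. Over all genes with a symbol, without filter or bound, it was -0.07.

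**Figure D1:**
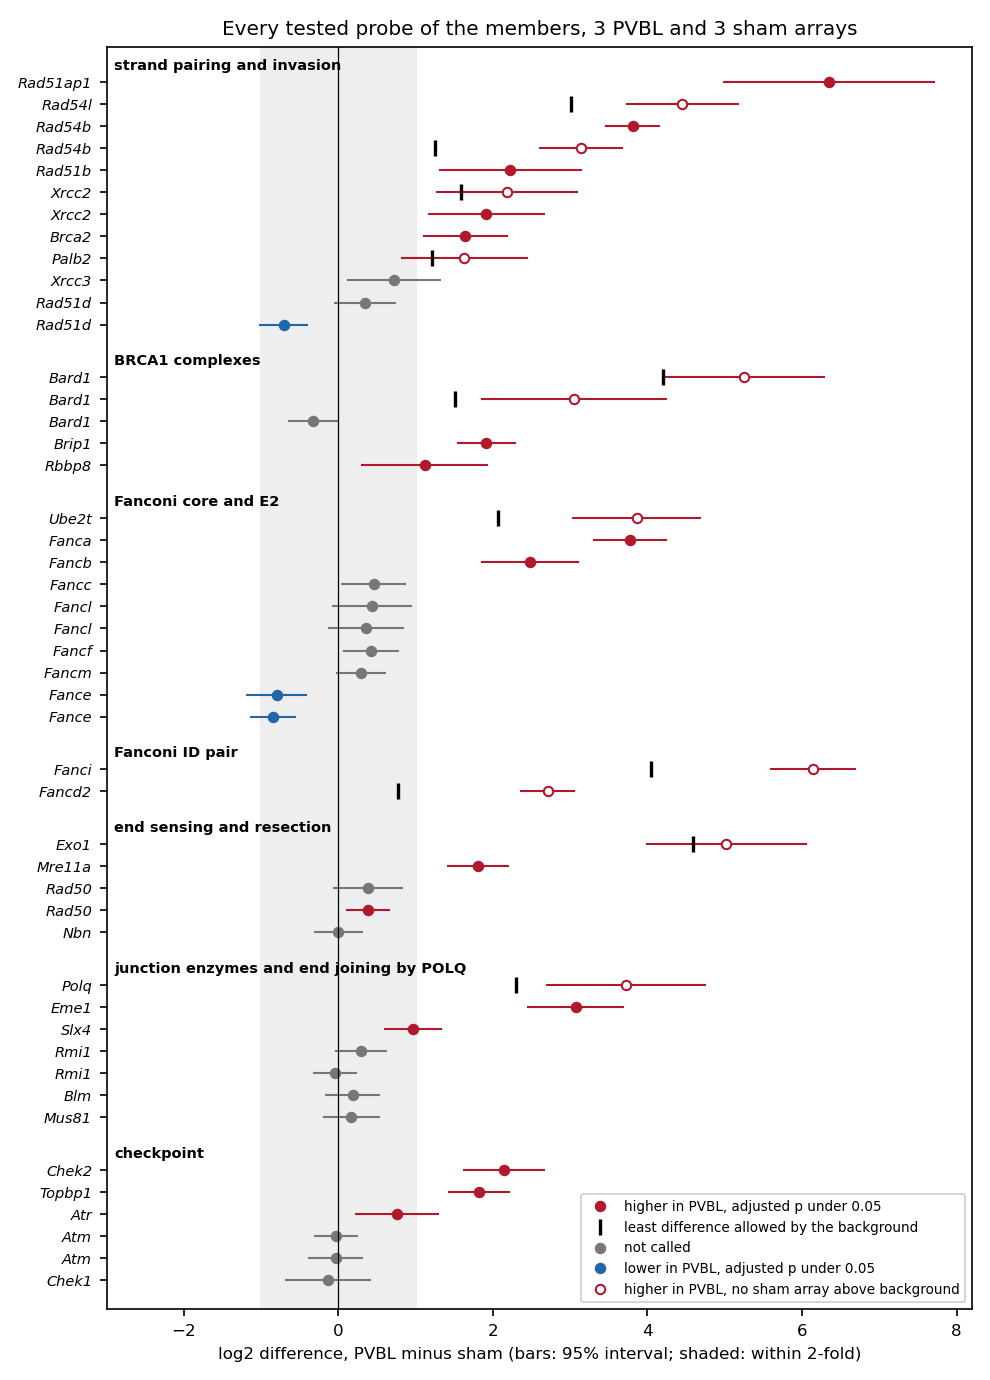
Fitted log2 difference, PVBL minus sham, of each of the 47 tested probes, grouped by role, with 95% intervals from limma over 3 PVBL and 3 sham arrays. Open circles mark probes that no sham array showed above background, and the black ticks give the approximate lower bound of their difference, taken from the background. Probes of 24 genes were called higher, both probes of Fance and 1 of Rad51d lower, and the grey probes were not called.

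The genes that rose were spread over every role, and within most roles some genes were flat. Each of the 24 rising genes had a called probe, the one with the largest difference, on which every PVBL value exceeded every sham value. Choosing probes in this way largely fixes that outcome. On 11 of these probes all 3 sham arrays were above background, on 4 probes 1 or 2 of them and on 9 none. For those 9 an approximate lower bound of the fold is given, the PVBL mean over the mean of the background limits of the sham arrays. The limit of an array is the dimmest signal still rated well above background, or the probe's own signal where higher. Some spots brighter than that dimmest signal were not rated well above background, so the true fold may be smaller. Folds given as at least a value for probes on no sham array are meant in this approximate sense. A second background correction, normexp, adds an offset of 50 units to every signal and thereby makes folds of dim probes smaller by construction. It is given where it moves a value by over 1.5 times.

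**Figure D2:**
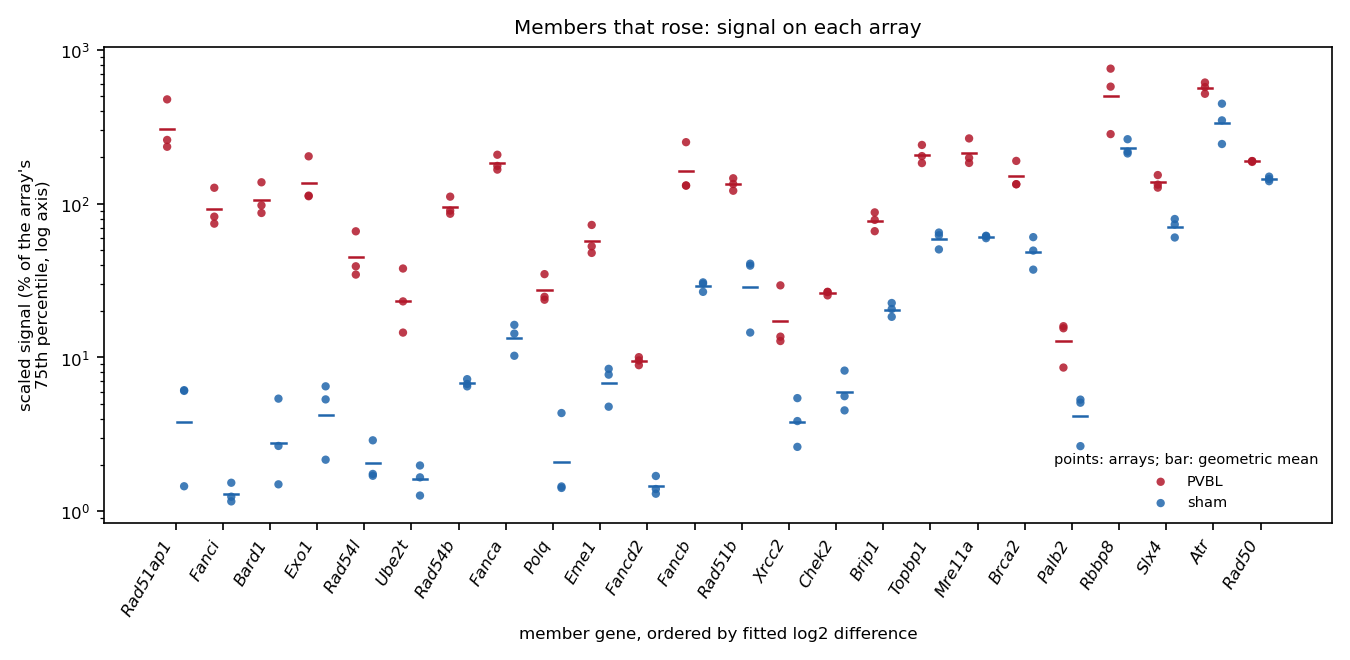
Scaled signal on each array, as a percentage of the array's 75th percentile on a log axis, for the 24 genes that rose, shown by the called probe with the largest difference. Red points are the 3 PVBL arrays and blue points the 3 sham arrays, with a bar at the geometric mean. In all 24 the PVBL points lie above the sham points, which this choice of probe largely fixes. Genes are ordered by fitted difference, from Rad51ap1 at the left to Rad50 at the right.

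Promoters of the listed genes were read for letters known from cell cycle genes, since 24 of the genes moved in 1 direction. RefSeq windows from 250 bases before to 50 after the start of transcription (GRCm38.p6; the arrays are annotated on mm9) were at hand for 18 of the rising and 9 of the flat genes. The E2F-type letters searched, on both strands, were TTTCCCGC, TTTGGCGC, TTTCGCGC, TTTGGCGG and TTTCCCGG, and the CHR-type letters, known from genes of late cell cycle phases, were TTTGAA and TTCGAA. Of the rising genes 4 of 18 held an E2F-type match, or 22.2%, and so did 2 of 9 flat genes, also 22.2%, against 5.13% of 17492 protein-coding genes with a window. CHR-type letters were in 5 of the rising genes (27.8%) and in 0 of the 9 flat genes, against 20.2% of protein-coding genes. The letters CCAAT, which neither contain nor lie within any of these motifs, were in 61.1% of the rising genes, 66.7% of the flat genes and 42.3% of protein-coding genes. Each E2F-type motif contains the letters CG, and the shares were not compared at like CG content. The median count of CG in a gene's window was 21 in rising, 25 in flat and 15 in protein-coding genes. A match in so short a window is a description and does not show binding, and the share with E2F-type letters was the same in rising and flat genes.

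The windows below show this overlap, with E2F-type and CHR-type letters in capitals: 3 rising genes with an E2F-type match, the flat gene Chek1 that has one too, and Fanci, one of the largest rises, which holds neither. All are printed in the direction of the gene.
Bard1 (chr1:71102923-71103222, minus strand): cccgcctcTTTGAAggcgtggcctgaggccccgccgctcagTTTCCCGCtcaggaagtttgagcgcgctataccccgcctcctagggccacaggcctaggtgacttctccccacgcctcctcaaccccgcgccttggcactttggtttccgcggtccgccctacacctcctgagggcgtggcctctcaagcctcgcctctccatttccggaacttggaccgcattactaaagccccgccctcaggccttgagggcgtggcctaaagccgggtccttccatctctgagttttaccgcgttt
Brca2 (chr5:150522371-150522670, plus strand): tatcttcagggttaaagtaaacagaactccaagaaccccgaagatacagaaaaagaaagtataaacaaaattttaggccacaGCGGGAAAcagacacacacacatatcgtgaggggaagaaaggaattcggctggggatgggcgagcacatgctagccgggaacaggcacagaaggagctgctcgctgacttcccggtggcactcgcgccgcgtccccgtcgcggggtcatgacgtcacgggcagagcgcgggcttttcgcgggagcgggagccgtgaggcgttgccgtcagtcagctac
Chek2 (chr5:110839733-110840032, plus strand): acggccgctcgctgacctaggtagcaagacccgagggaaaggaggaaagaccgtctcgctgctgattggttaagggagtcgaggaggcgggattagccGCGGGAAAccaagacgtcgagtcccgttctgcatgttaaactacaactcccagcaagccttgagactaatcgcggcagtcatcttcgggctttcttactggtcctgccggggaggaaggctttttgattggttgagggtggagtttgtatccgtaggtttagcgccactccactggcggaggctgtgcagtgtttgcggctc
Chek1 (chr9:36726609-36726908, minus strand): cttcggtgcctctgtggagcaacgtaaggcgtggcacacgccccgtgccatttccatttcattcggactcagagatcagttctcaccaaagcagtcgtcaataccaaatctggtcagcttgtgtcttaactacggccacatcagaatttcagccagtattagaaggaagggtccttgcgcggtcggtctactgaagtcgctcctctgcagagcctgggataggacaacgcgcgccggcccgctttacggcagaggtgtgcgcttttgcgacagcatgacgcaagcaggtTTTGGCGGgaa
Fanci (chr7:79392088-79392387, plus strand): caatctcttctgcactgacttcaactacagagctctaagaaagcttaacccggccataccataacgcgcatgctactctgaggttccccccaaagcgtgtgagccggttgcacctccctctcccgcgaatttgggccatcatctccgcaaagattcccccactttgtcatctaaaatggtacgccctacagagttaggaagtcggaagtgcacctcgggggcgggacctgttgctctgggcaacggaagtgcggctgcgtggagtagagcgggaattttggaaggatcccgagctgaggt
Counted from the start of transcription, the E2F-type letters begin at -209 in Bard1, -168 in Brca2, -152 in Chek2 and 40 in Chek1.

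Among genes of strand pairing and invasion, Rad51ap1 changed most. It encodes a protein that promotes strand invasion. Its signal was 235%, 477% and 260% in PVBL livers, against 6.06%, 6.13% and 1.45% in sham livers. The PVBL values were all far above the sham values, the third of which was itself low, and 2 of the 3 sham arrays were above background. The log2 difference was 6.35 ± 0.58 (SE, n = 3 per group; limma adjusted p = 0.000584), or 81.4-fold. Without sham replicate 3 the fold was 50.5, and with normexp it was 11.1.

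The DNA translocase genes Rad54l and Rad54b, whose products move along DNA during strand exchange, also rose. Rad54l read 34.6%, 66.2% and 39.2% in PVBL livers, against 1.75%, 2.89% and 1.70% in sham livers, where no array was above background. It was at least 8.04-fold higher (adjusted p = 0.000159), and 2.20-fold with normexp. Rad54b read 86.0%, 111% and 90.2% in PVBL livers, against 6.49%, 6.72% and 7.22% in sham livers. The values of Rad54b were tight within each group, with 2 of 3 sham arrays above background, and the difference was 14.0-fold (log2 3.81 ± 0.14, SE, adjusted p = 1.18e-05), or 3.44-fold with normexp. A second Rad54b probe was at least 2.37-fold higher, and its call was lost with normexp (1.25-fold).

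Rad51b, Rad51d and Xrcc2, whose products share a complex, and Xrcc3, of a related complex, did not all receive the same call. Rad51b read 121.5%, 134% and 146% in PVBL livers, against 39.6%, 40.7% and 14.5% in sham livers. It was 4.67-fold higher (log2 2.22 ± 0.39, SE, adjusted p = 0.00726), or 2.89-fold with normexp, with sham replicate 3 well below the other sham arrays. Xrcc2 read 52.8%, 70.7% and 35.3% in PVBL livers, against 16.9%, 15.6% and 9.36% in sham livers. It was 3.77-fold higher (adjusted p = 0.00604), or 1.78-fold with normexp, and its dimmer probe was at least 3.00-fold higher but lost its call with normexp (1.38-fold). The 2 probes of Rad51d disagreed. One fell, with 42.0%, 44.7% and 46.4% in PVBL livers, against 79.25%, 67.2% and 71.4% in sham livers (log2 difference -0.71 ± 0.13, SE, adjusted p = 0.008165). The other, brighter probe read 137%, 142% and 99.8% in PVBL livers, against 95.8%, 101.4% and 97.3% in sham livers, where the groups overlapped and no call was made (adjusted p = 0.149). The brighter probe was called higher without PVBL replicate 3 (log2 difference 0.51). Xrcc3 read 71.0%, 114% and 59.5% in PVBL livers, against 53.3%, 50.2% and 40.8% in sham livers. The groups did not overlap, but the gene missed the threshold (adjusted p = 0.0693) and its interval, 0.12 to 1.31 on the log2 scale, reached past 2-fold, so it was undecided. Xrcc3 was called higher with median scaling, with spike-in scaling, with the replicate number as a block and without PVBL replicate 3.

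Brca2 and Palb2, whose products act together, both rose. Brca2, whose product works on the trimmed single strands, read 134%, 190% and 134% in PVBL livers, against 60.6%, 49.6% and 37.3% in sham livers. It was 3.12-fold higher (log2 1.64 ± 0.23, SE, adjusted p = 0.00322). Palb2, the link between BRCA1 and BRCA2, read 8.60%, 15.97% and 15.5% in PVBL livers, against 2.65%, 5.08% and 5.32% in sham livers, none of them above background. It was at least 2.31-fold higher (adjusted p = 0.0141), but its values lay close to background on all arrays, and with normexp it was 1.22-fold higher and not called (adjusted p = 0.234).

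Brca1 itself could not be followed. Its 1 probe was not well above background on any of the 6 arrays, at 1.92%, 1.74% and 5.12% in PVBL livers, against 1.22%, 1.34% and 1.59% in sham livers, so no direction can be given for it. Its partners were measured. Bard1, the other subunit of the BRCA1 ubiquitin ligase, had 3 probes under the same accession. The most changed of them read 97.6%, 138% and 87.1% in PVBL livers, against 5.40%, 2.66% and 1.495% in sham livers, at least 18.4-fold higher (adjusted p = 0.00041; 4.69-fold with normexp). A second was at least 2.84-fold higher (1.47-fold with normexp, call lost). The brightest did not move with them: it read 58.6%, 53.3% and 49.1% in PVBL livers, against 63.6%, 66.9% and 71.3% in sham livers (log2 difference -0.33 ± 0.13, SE, adjusted p = 0.0933). Taken by that probe alone Bard1 was not called.

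Brip1, a helicase gene named for its binding to BRCA1, read 78.5%, 87.8% and 66.3% in PVBL livers, against 22.6%, 18.4% and 20.7% in sham livers. The groups were far apart, and the difference was 3.76-fold (log2 1.91 ± 0.16, SE, adjusted p = 0.000363), or 2.46-fold with normexp. Rbbp8, which encodes CtIP, the factor that starts the trimming of broken ends, read 284%, 756% and 578% in PVBL livers, against 218%, 212% and 263% in sham livers. PVBL replicate 1 lay just above the highest sham value. The fold of 2.17 passed narrowly (adjusted p = 0.0459), and Rbbp8 was no longer called when PVBL replicate 2, PVBL replicate 3 or any 1 sham array was left out (log2 differences 0.82 to 1.21), with quantile scaling (adjusted p = 0.0544) or with no filter on dim probes (adjusted p = 0.132).

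The genes of the Fanconi core complex and of its ubiquitin-conjugating enzyme split into some that rose and some that did not. Fanca, a scaffold subunit, read 167%, 208% and 176% in PVBL livers, against 10.3%, 16.3% and 14.3% in sham livers. It was 13.7-fold higher (log2 3.77 ± 0.20, SE, adjusted p = 4.64e-05), or 5.41-fold with normexp. Fancb, of the catalytic part of the complex and X-linked, read 131%, 251% and 132% in PVBL livers, against 30.8%, 26.7% and 30.2% in sham livers. It was 5.59-fold higher (adjusted p = 0.00113), or 3.15-fold with normexp, with PVBL replicate 2 well above the other PVBL arrays. Ube2t, which encodes the ubiquitin-conjugating enzyme of the pathway, read 23.2%, 37.9% and 14.5% in PVBL livers, against 1.26%, 1.98% and 1.66% in sham livers. No sham array was above background, and Ube2t was at least 4.20-fold higher (adjusted p = 0.000565; 1.58-fold with normexp).

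The other tested core genes stayed within 2-fold or fell. Fancl, the ubiquitin ligase subunit, read 655%, 910% and 561% in PVBL livers, against 487%, 531% and 618% in sham livers, so the groups overlapped (log2 difference 0.36, 95% interval -0.13 to 0.84). Fancf read 266%, 302% and 227% in PVBL livers, against 211%, 186% and 192% in sham livers. All PVBL values of Fancf were above the sham values, by 1.34-fold (adjusted p = 0.0668), and it was called with normexp, with median or quantile scaling and without PVBL replicate 3 (0.42 to 0.56 on the log2 scale). Fancc and the translocase gene Fancm, whose product recruits the core complex, had log2 differences of 0.46 and 0.30 and were flat. Fancc was called higher with median scaling and without PVBL replicate 3, and Fancl without PVBL replicate 3. Fance, the subunit that contacts FANCD2, read 595%, 580% and 550% in PVBL livers, against 1108%, 987% and 1017% in sham livers. It was 1.80-fold lower (log2 difference -0.85 ± 0.12, SE, adjusted p = 0.00359), and 1.74-fold lower on its second probe. With scaling on spike-in probes, under which the median over all tested probes was 0.24 in place of -0.19, Fance was at -0.42 and Rad51d at -0.28, and neither fall was called. Fancg had no tested probe: it was above background on 2 of the 3 PVBL arrays, at 6.93%, 8.75% and 8.85%, and on no sham array, at 2.49%, 3.896% and 1.62%.

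Both substrates of the core complex rose. Fanci read 82.4%, 127% and 74.2% in PVBL livers, against 1.16%, 1.24% and 1.53% in sham livers. The sham values were all at background, and Fanci was at least 16.5-fold higher (adjusted p = 1.02e-05), or 5.09-fold with normexp. Fancd2 read 8.91%, 10.05% and 9.56% in PVBL livers, against 1.30%, 1.39% and 1.69% in sham livers. Although the values were tight, the probe was dim: Fancd2 was at least 1.71-fold higher (adjusted p = 5.01e-05), and with normexp it was 1.12-fold higher and not called (adjusted p = 0.421).

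Genes that sense and trim broken ends differed within 1 complex. MRE11, RAD50 and NBN form the complex that binds ends. Mre11a, the nuclease gene, read 184%, 266% and 199% in PVBL livers, against 59.7%, 61.9% and 61.4% in sham livers, and was 3.50-fold higher (log2 1.81 ± 0.17, SE, adjusted p = 0.000592). Rad50 read 187%, 189% and 190% in PVBL livers, against 150%, 145% and 140% in sham livers. That difference of 1.30-fold was small but larger than the spread (adjusted p = 0.0436), was not called on the other probe, and the call was lost without any 1 array (adjusted p 0.0592 to 0.121), with normexp, with spike-in scaling, with no filter on dim probes and with the replicate number as a block (adjusted p = 0.0900). Nbn read 104%, 88.7% and 98.0% in PVBL livers, against 99.5%, 101.1% and 90.1% in sham livers, and was flat (log2 difference -0.0012, 95% interval -0.30 to 0.30). Exo1, an exonuclease gene of long-range trimming, read 112%, 203% and 113% in PVBL livers, against 5.34%, 2.16% and 6.49% in sham livers, at least 24.0-fold higher (adjusted p = 0.00048; 4.56-fold with normexp).

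Of the genes that process joined strands or join ends by another route, Eme1, Slx4 and Polq rose, and Mus81, Blm and Rmi1 were flat. Eme1, the partner of the nuclease MUS81, read 52.8%, 72.8% and 47.9% in PVBL livers, against 4.78%, 8.43% and 7.73% in sham livers. It was 8.39-fold higher (log2 3.07 ± 0.26, SE, adjusted p = 0.000418), or 2.64-fold with normexp. Mus81 read 106%, 117% and 88.4% in PVBL livers, against 94.9%, 97.5% and 84.5% in sham livers, with the groups overlapping (log2 difference 0.17, 95% interval -0.19 to 0.52). Slx4, a scaffold gene for several nucleases, read 133%, 127% and 154% in PVBL livers, against 60.3%, 79.5% and 73.3% in sham livers, 1.95-fold higher (adjusted p = 0.00563). Polq encodes polymerase theta, which joins ends through short matching stretches in place of recombination. It read 23.7%, 34.8% and 24.8% in PVBL livers, against 4.35%, 1.42% and 1.45% in sham livers, at least 4.92-fold higher (adjusted p = 0.00172; 1.94-fold with normexp). Blm, a RecQ helicase gene, read 97.4%, 115% and 96.3% in PVBL livers, against 100.2%, 91.6% and 80.2% in sham livers. Rmi1, of the same complex, read 216%, 213% and 212% in PVBL livers, against 228%, 221% and 212% in sham livers, and both genes were flat.

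In the checkpoint, Chek2 and Topbp1 rose clearly and Atr slightly, and Atm and Chek1 were flat. Chek2, the kinase gene downstream of ATM, read 26.6%, 26.7% and 25.3% in PVBL livers, against 5.60%, 8.21% and 4.53% in sham livers. It was 4.42-fold higher (log2 2.15 ± 0.22, SE, adjusted p = 0.000979), or 1.45-fold with normexp. Topbp1, the activator of ATR, read 204%, 241% and 184% in PVBL livers, against 62.3%, 64.9% and 50.4% in sham livers, 3.54-fold higher (adjusted p = 0.000556). In both genes the groups were far apart. Atr read 574%, 614% and 519% in PVBL livers, against 348%, 447% and 245% in sham livers. It was 1.69-fold higher (adjusted p = 0.0428), and the call was lost on leaving out any 1 array other than sham replicate 2 (log2 differences 0.52 to 0.82) and with no filter on dim probes (adjusted p = 0.132).

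The rule for printing values in each sample covered the called genes and the brightest flat ones, so Atm, Chek1, Blm, Nbn and Xrcc3 are given in this way after their values were seen. Atm read 48.4%, 38.2% and 42.4% in PVBL livers, against 44.9%, 47.4% and 39.7% in sham livers on its brighter probe, and -0.03 on the log2 scale on the other. Chek1, the kinase gene downstream of ATR, had 1 probe, which read 16.2%, 9.50% and 8.97% in PVBL livers, against 12.4%, 12.1% and 12.2% in sham livers. The Chek1 values overlapped (log2 difference -0.13, 95% interval -0.68 to 0.41), on a dim probe that was well above background on all 6 arrays. A Cdk1 probe of like brightness, also well above background on all 6 arrays, was not called (log2 difference 0.04). Another Cdk1 probe rose 33.5-fold. A further Cdk1 probe was also dim, at 22.1%, 33.7% and 21.0% in PVBL livers and above background on no sham array. It was nevertheless called, at least 4.49-fold higher (adjusted p = 0.00013; 1.62-fold with normexp). Why the Cdk1 probes differed was not tested. Probes of the same gene can thus disagree, so flat for Chek1 describes its 1 probe only. Over the 13 probes of the 10 flat genes the log2 differences ranged from -0.13 to 0.46, and the groups overlapped on 8 probes. On the other 5, of Fancc, Fancf, Fancl, Fancm and Rmi1, the PVBL values were all higher, as they were on 17.6% of all tested probes. The difference between these shares was not tested.

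Ratios within an array do not depend on the factor by which that array is scaled. For 7 pairs of genes whose products act together or in 1 pathway, chosen after the values were seen, the ratio of the brightest probes is given as a description. An exact two-sided permutation test gave p = 0.1 for each pair other than Atr to Chek1 (p = 0.2). With 3 arrays against 3 that test cannot give less than 0.1, so it decides nothing here. The Eme1 to Mus81 ratio was 7.48-fold higher in PVBL livers, or 2.37-fold with normexp, and 1 of the sham arrays was not above background for Eme1. That of Mre11a to Nbn was 3.50-fold and that of Mre11a to Rad50 2.69-fold higher. Chek2 to Atm was 4.54-fold higher, or 1.52-fold with normexp, with 1 sham array not above background for Chek2. Fanca to Fancc was 9.96-fold higher, or 4.29-fold with normexp, and Fanca to Fance 24.7-fold, or 9.11-fold with normexp. The Atr to Chek1 ratio was 1.85-fold higher. In the pairs other than Atr to Chek1 each PVBL ratio exceeded each sham ratio, which the choice of a called gene against a flat, falling or less changed one largely fixes.

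**Figure D3:**
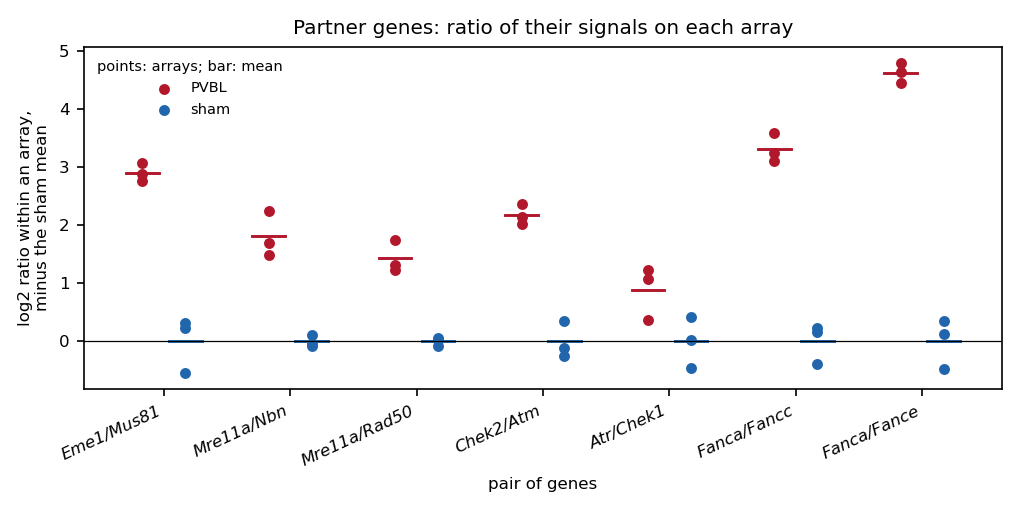
Log2 ratio of 2 genes on the same array, minus the mean ratio of the sham arrays, for 7 pairs. Red points are the 3 PVBL arrays, blue points the 3 sham arrays and bars their means. The groups are apart in all pairs but Atr to Chek1.

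PVBL livers differed among themselves. In 21 of the 24 rising genes (87.5%) the highest PVBL value was that of replicate 2, and in the other 3 that of replicate 3. Replicate 2 was also highest on 8 of the 14 tested probes of the flat and undecided genes, for 47.0% of all 2124 rising genes and on 43.4% of all tested probes, and the difference between these shares was not tested. The lowest was replicate 1 in 14, replicate 3 in 9 and replicate 2 in 1. All 6 markers of dividing cells, Mki67, Top2a, Pcna, Ccna2, Ccnb1 and Cdk1, rose as well. Their summed signal was 6550%, 9429% and 5889% in PVBL livers, against 1254%, 1162% and 1083% in sham livers. Most of the sham sum was Pcna, and without it the sum was 3004% to 4197% in PVBL livers, against 53.9% to 71.8% in sham livers. Replicate 2 was highest in both sums, though Top2a alone was highest on replicate 3.

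Markers of other cells moved in the same samples. Of 6 hepatocyte markers 4 were flat and 1 fell. Of 6 cholangiocyte markers 3 rose and 1 fell, with a summed signal of 692% to 2147% in PVBL livers, against 199% to 437% in sham livers. Most of that sum was Spp1, and without it the sum was 114% to 204% in PVBL livers, against 70.6% to 95.1% in sham livers. Of 7 stellate cell markers 3 rose and 1 fell (1102% to 2617% in PVBL livers, 782% to 877% in sham livers). Of 6 endothelial markers 3 fell (4502% to 6700% in PVBL livers, 10433% to 11062% in sham livers), and of 6 T and NK cell markers 3 fell (3941% to 7471% in PVBL livers, 6427% to 8423% in sham livers). Most of the T and NK cell sum was Cd4, on a bright probe that was not called. Without Cd4 the sum was 836% to 1019% in PVBL livers, against 1145% to 1285% in sham livers. None of the macrophage, B cell or neutrophil markers was called, and 1 of 5 erythroid markers fell. Epcam, Klrb1c and Mpo had no tested probe, and Cd68 and Ly6g matched no probe. The part of these cells in the changes of the repair genes was not tested.

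Other repair and checkpoint genes, 84 genes in 6 lists, were counted by the same rule. Of 15 other checkpoint genes 8 rose and none fell. Among them, Timeless, of the fork protection complex, was 5.12-fold higher (376.5% ± 64.9 in PVBL livers and 73.6% ± 13.1 in sham livers, SD, n = 3; limma adjusted p = 0.00033), Clspn, which carries the signal from ATR to CHEK1, at least 1.76-fold (adjusted p = 0.0267; 1.16-fold with normexp, call lost) and Mdc1, a reader of marked chromatin at breaks, 2.90-fold (adjusted p = 0.0237). Of 24 other recombination and Fanconi genes 6 rose and none fell, 12 being flat. Rpa2, a subunit of the protein that coats single strands, was 5.11-fold higher, Gen1, a junction nuclease gene, 3.59-fold (1.37-fold with normexp; 1 of 3 sham arrays above background) and Mcm8, a helicase gene of recombination, 3.28-fold (1.5-fold with normexp).

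The remaining lists are of pathways that do not copy from a sister chromatid. Of 9 genes of non-homologous end joining 2 rose and 1 fell: Lig4, the ligase gene, was 1.71-fold and Nhej1 1.48-fold higher, and Dclre1c, the nuclease Artemis, 1.66-fold lower. Of 14 nucleotide excision genes Ercc3 rose, by 1.41-fold, and Xpa fell, by 1.72-fold. Of 15 base excision genes 5 rose, 2 fell and Tdg had probes called in both directions. Neil3, a glycosylase gene, was at least 6.82-fold higher (2.13-fold with normexp), Mutyh 3.24-fold (1.84-fold with normexp), and Neil2 was 1.71-fold lower. Of 7 mismatch repair genes 3 rose, among them Msh6 and Pms2, with Pms2 at 1.95-fold on its brighter probe and Msh6 at 1.99-fold. Over the 6 lists 25 of 84 genes rose and 4 fell, against 24 and 2 of the 40 genes above and 10.6% of all genes with a probe that rose. The difference between the lists was not tested.

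**Figure D4:**
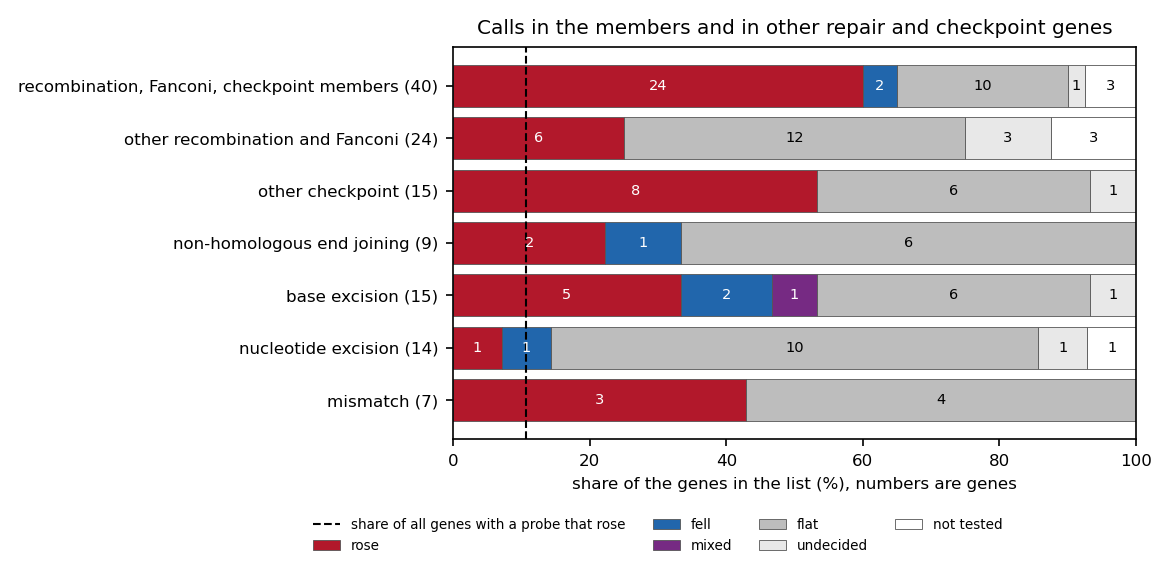
Share of the genes of each list that rose, fell, had probes called in both directions, were flat, were undecided or were not tested, with the number of genes in each part. The dashed line is the 10.6% of all 20018 genes with a probe that rose. The top bar holds the 24 rising and 10 flat genes described here, and the nucleotide excision bar is the one below the line, with 1 rising gene of 14.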

How the data were processed

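Right-lobe or sham liver RNA was measured on 6 single-colour arrays, and groups and replicate numbers were taken from the labels. The deposited scanner files hold intensity per spot, made per the file headers with Agilent Feature Extraction 10.7.3.1 on design 028005 (mm9); the submitters' processing notes name version 9.1. The processed signal is background-subtracted by that software. The authors' deposited value table holds log2 values that matched the scanner values after scaling and centring (r between 0.9997 and 0.9998); column medians lay between -0.22 and 0.18. It holds 7849 probes and served only as an alternative.

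Control spots and flagged outliers were removed, replicate spots averaged, log2 taken and each array's 75th percentile subtracted. Probes with all 3 arrays of either group well above background were fitted with limma 3.58.1 in R 4.3.3 (lmFit, eBayes, two-sided) and adjusted over all 27919. SE is limma's. Symbols came from RefSeq accessions (GRCm38.p6), matched for 26413 of 55681 probes. On simulated arrays 100 of these probes were changed 2-fold and 100 were changed 4-fold, and 36% and 89% of them were recovered. In the data 30.5% of probes were called, which makes the Benjamini-Hochberg threshold less strict than in the simulation. The recovered shares are therefore not the power of the main test. Values in each sample are given for called genes by size of difference, then the brightest flat ones, up to 30; from each other list, up to 3 called genes with the largest difference. The genes and lists were chosen with earlier results of these data known. Normexp was run on the median spot and background intensity. Background, scaling, filter, probe choice, flags, table, threshold, block and leaving out each array were varied. Some genes are not reported here.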

Additional observations from a re-analysis of the deposited data

How the results depend on the processing

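Of the 40 genes 12 rose where all 6 arrays had to be above background (12 probes), by construction, since the called probes of the other 12 were no longer tested, and 20 to 27 rose under each of the other alternatives. No called difference of these genes changed sign under any alternative run. Left-out arrays gave 21 to 25 rising, 1 to 2 falling and 8 to 12 flat genes, 24 to 29 probes higher and 3 lower, 1962 to 3306 and 2197 to 5193 of all probes higher and lower, and 16 to 28 and 1 to 4 genes of the other lists rising and falling. Falling genes were 0 with spike-in scaling and with a fitted 2-fold minimum (falling probes 0 in both), and 1 with 1 probe a gene (falling probes 1). Flat genes were 0 with spike-in scaling and 0 in the authors' table. Of the 7849 probes held there, 2913 were called higher and 4736 lower, that is nearly all of them. Such a set of probes leaves little room for flat genes. Its counts of 0 flat and 21 rising genes therefore do not test the main counts. Over all probes 2053 were higher and 2422 lower with 1 probe a gene, 1676 and 1945 with no filter, 1578 and 1455 at an adjusted p of 0.01, 1493 and 1495 with a 2-fold minimum, 3992 and 3288 with median scaling and 2622 and 462 with spike-in scaling. The other lists had 13 rising and 0 falling genes with no filter, 13 and 0 at an adjusted p of 0.01, 12 and 0 with a 2-fold minimum and 20 and 0 with spike-in scaling. The cause of these changes in count was not tested. With the replicate number as a block 24 genes rose, 23 of them shared, Rad50 being lost and Xrcc3 gained, and 2829 and 4551 of all probes were called higher and lower. Same-numbered samples had correlations of deviations of 0.20, -0.039 and 0.23, and differently numbered ones had -0.25 to 0.15. The labels give no pairing and the main fit used none, but these values do not exclude one. Signal over background limits Brca1, Fancg, Fancd2 and Palb2 most.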
